A study of Mus with 8 samples.

Results

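Ddit4, Ddit4l, Sesn1, Sesn2, Sesn3 and Deptor encode inhibitors of mTORC1, the kinase complex that couples nutrients and growth factors to protein and lipid synthesis. Their transcripts were followed in brown fat of mice labelled as lacking Hilpda and of wild type mice. The 6 genes were chosen by name as a family, with earlier results of these data known, in which Ddit4 stood out between the genotypes. Values of KO against wild type are therefore given as a description, without a test for these genes. Each of the 6 was measured, by 7 probe sets in all, out of 30710 genes on the arrays. Where a gene had more than 1 probe set, which was the case for Sesn3, the probe set with the highest mean over all arrays was used.

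mTORC1 is switched on at the lysosome by the small GTPase Rheb and by the Rag GTPases. The product of Ddit4 (REDD1) and that of its paralog Ddit4l (REDD2) act on the growth factor side, through the TSC complex, which keeps Rheb inactive. Sestrins act on the amino acid side, where they bind the GATOR2 complex and so restrain the Rag GTPases, and Sestrin2 is a known leucine sensor. DEPTOR binds the mTOR kinase directly and inhibits both mTOR complexes. Ddit4 and the sestrins are induced by stress. Known inducers include hypoxia, glucocorticoids and the transcription factors ATF4, p53 and FOXO. In brown fat mTORC1 is known to take part in tissue growth and in the response to cold.

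Interscapular brown adipose tissue of 4 mice labelled HILPDA KO and of 4 wild type mice was measured, 1 array per mouse, on the C57BL/6 background and without technical replicates. The labels call all mice female, and neither the age, the allele nor the cells in which Hilpda was removed is stated in the labels. The product of Hilpda sits on lipid droplets and inhibits the lipase ATGL. Values are on the log2 scale as the authors' RMA normalization gave them, and with 4 arrays per group the precision is low.

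By their value distributions the arrays fall into 2 sets, of which the labels say nothing. Replicates 1 and 2 of KO and wild type (set 1) had a median over genes of 3.93 to 3.99, and replicates 3 and 4 of each (set 2) had one of 4.92 to 4.97. KO and wild type levels are therefore compared within a set. Where arrays of both sets are ranked together below, the shift between the sets is part of the values. Brown adipocyte markers were present on every array, with Ucp1 at 19.68 to 19.93, close to the highest value of each array. Uty and Eif2s3y, which are Y-linked, had values of 8.53 to 11.01, whereas Xist, the transcript that silences an X chromosome in female cells, read 3.49 to 4.10 on all 8 arrays, against the label of female mice. Hilpda read 4.45, 4.37, 5.60 and 5.51 in KO replicates 1 to 4, against 4.37, 4.28, 6.00 and 5.92 in wild type replicates 1 to 4. It was lower in KO than in wild type arrays in set 2 only, and the place of its probe set relative to the deletion is not stated. The groups below are therefore arrays labelled KO and arrays labelled wild type. As the tissue was measured in bulk, fewer cells of a type and less RNA per cell cannot be told apart.

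In limma, with the set as a block and Benjamini-Hochberg adjustment over all genes, 0 of 30710 genes passed an adjusted p of 0.05 between KO and wild type (0%), and 1482 had an unadjusted p under 0.05. Of the 6 mTORC1 inhibitors 0 passed. Without the block 0 genes passed, with 38 under an unadjusted p of 0.05, and a block for the replicate number left 0 as well, with 1234 under it.

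Ddit4, the stress-induced inhibitor of the growth factor branch, had the widest gap of the family between the genotypes over all arrays and in set 1. In set 2 the gap was wider in Sesn1 (1.59). It read 13.10 and 11.73 in KO replicates 1 and 2 of set 1, against 9.32 and 9.41 in wild type replicates 1 and 2. In set 2 it read 10.61 and 11.85 in KO replicates 3 and 4, against 9.49 and 10.71 in wild type replicates 3 and 4. In set 1 both KO values lay above both wild type values, and in set 2 the groups overlapped, because wild type replicate 4 lay above KO replicate 3. The difference of KO minus wild type was 3.05 (SE 0.60) in set 1, or 8.27-fold, and 1.13 (SE 0.60) in set 2, or 2.19-fold. Over all arrays it was 2.09 (SE 0.54, n = 4 each), the 12th highest of 30710 genes. This is the value by which the gene came to attention, so its rank supports nothing. The difference was as large as 2.53 without KO replicate 3 and as small as 1.62 without KO replicate 1.

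**Figure D1:**
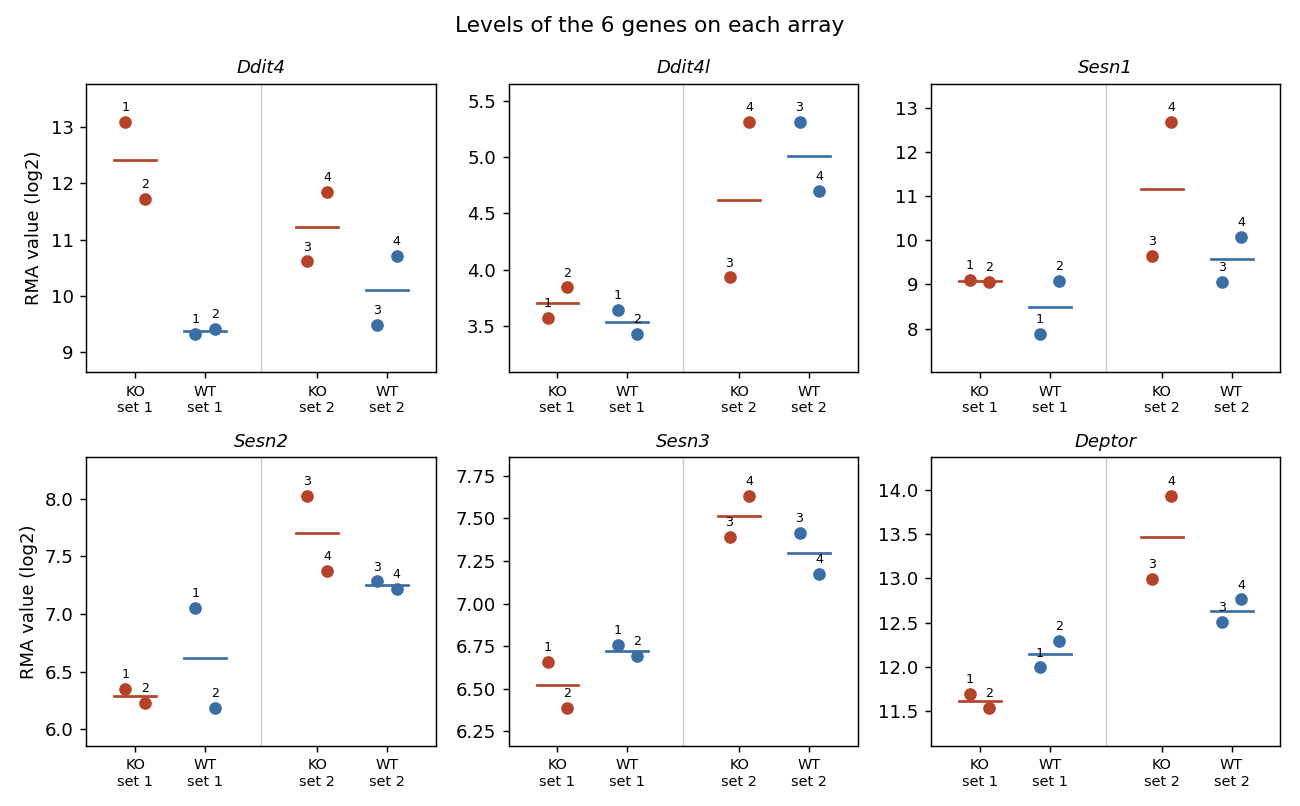
Values of the 6 genes on each array, on the log2 scale (y axis, a scale of its own for each gene), for KO (red) and wild type (WT, blue) arrays of set 1 and of set 2; points are arrays with their replicate number and lines are the mean of 2 arrays. Ddit4 in set 1 shows both KO arrays (13.10 and 11.73) far above both wild type arrays (9.32 and 9.41), and Sesn1 in set 2 shows KO replicate 4 (12.68) apart from the rest.

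The 2 sets differed in how the Ddit4 level stood in the KO arrays. Between the sets the median of genes with a mean of at least 9 was higher in set 2 by 1.15 in KO arrays and by 0.97 in wild type arrays. Ddit4 was higher in set 2 by 0.73 in wild type arrays but lower by 1.18 in KO arrays, whereas the other 5 genes read higher in set 2 in both groups. The sets were treated as normalized apart, so these shifts are no measure of RNA. The difference between the sets in KO minus wild type, which does not need such a comparison of levels, was -1.92 (SE 0.86) for Ddit4.

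Transcripts of liver varied on the arrays of set 1 and were highest on KO replicate 1, which also had the highest Ddit4. The median of 9 hepatocyte markers was 12.05 and 8.14 in KO replicates 1 and 2, against 7.44 and 5.58 in wild type replicates 1 and 2. Ddit4 read 13.10 and 11.73 on these KO arrays, against 9.32 and 9.41 on these wild type arrays. In KO both the liver median and Ddit4 were lower in replicate 2 than in replicate 1. In wild type the liver median was lower in replicate 2 and Ddit4 was nearly the same. Over the 8 arrays the r of set-centred Ddit4 with the liver median was 0.799, the highest of Ddit4 with any list. It is a description and carries no p. On each of these 4 arrays all 9 lay above the 95th percentile of 1229 olfactory receptor genes, a group with mostly low signal here. In set 2 the same median was 4.48 and 4.47 in KO, against 4.41 and 4.42 in wild type, and 3 of the 9 markers lay above that percentile. Alb, which encodes serum albumin, read 19.23 and 15.81 in KO arrays of set 1, against 14.51 and 10.03 in wild type arrays. In set 2 it read 5.23 and 4.99 in KO arrays, against 5.11 and 4.79 in wild type arrays. In set 2, where Ddit4 differed by 1.13, 8 of the 9 markers differed by at most 0.159 in size. The other, Hpd, an enzyme of tyrosine breakdown named after its values were seen, read 6.49 and 6.57 in KO arrays of set 2, against 5.29 and 5.72 in wild type arrays, a difference of 1.03. The part of liver transcripts in the difference of Ddit4 was not tested in either set.

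The array-to-array spread of Ddit4 was wide. Its 2 KO arrays differed by 1.37 in set 1 and by 1.24 in set 2, and its wild type arrays by 0.09 in set 1 and by 1.22 in set 2. The median of all genes for the same gaps was 0.13 and 0.17 in the KO pairs, and 0.13 and 0.15 in the wild type pairs. The gap of Ddit4 was wider than that of 99.4% and 99.1% of genes in the KO pairs of set 1 and set 2, and wider than that of 35.3% and 99.7% in the wild type pairs.

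Ddit4l, the paralog of Ddit4 that is known mainly from skeletal muscle, was near the low end of the signal. It read 3.57, 3.84, 3.93 and 5.31 in KO replicates 1 to 4, against 3.64, 3.43, 5.31 and 4.70 in wild type replicates 1 to 4. Only KO replicate 4 and wild type replicate 3 lay above the 95th percentile of olfactory receptor genes, and no array lay above their 99th percentile. The groups overlapped in both sets. KO minus wild type was 0.17 (SE 0.43) in set 1 and -0.38 (SE 0.43) in set 2, and -0.11 (SE 0.30) over all arrays. The sign turned without KO replicate 3, to 0.22. The other 5 genes lay above the 99th percentile of olfactory receptor genes on all 8 arrays, and were also the 5 that passed a filter on a mean of at least 5.

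The level of Ddit4l went with skeletal muscle transcripts in set 2. The median of 10 markers of skeletal muscle was 6.66, 10.45, 5.77 and 10.65 in KO replicates 1 to 4, against 8.996, 8.24, 11.74 and 9.74 in wild type replicates 1 to 4. In set 2 KO replicate 3 had both the lowest Ddit4l and the lowest muscle median. In set 1 KO replicate 2 had both the highest Ddit4l and the highest muscle median, though its Ddit4l did not rise above the low-signal range. The part of muscle in these values was not tested. The genes whose values, centred on the mean of their set, were most like those of Ddit4l over the 8 arrays were Tmem38a, a cation channel of the sarcoplasmic reticulum (r = 0.993), and Mylk2, the myosin light chain kinase of skeletal muscle (r = 0.989).

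**Figure D2:**
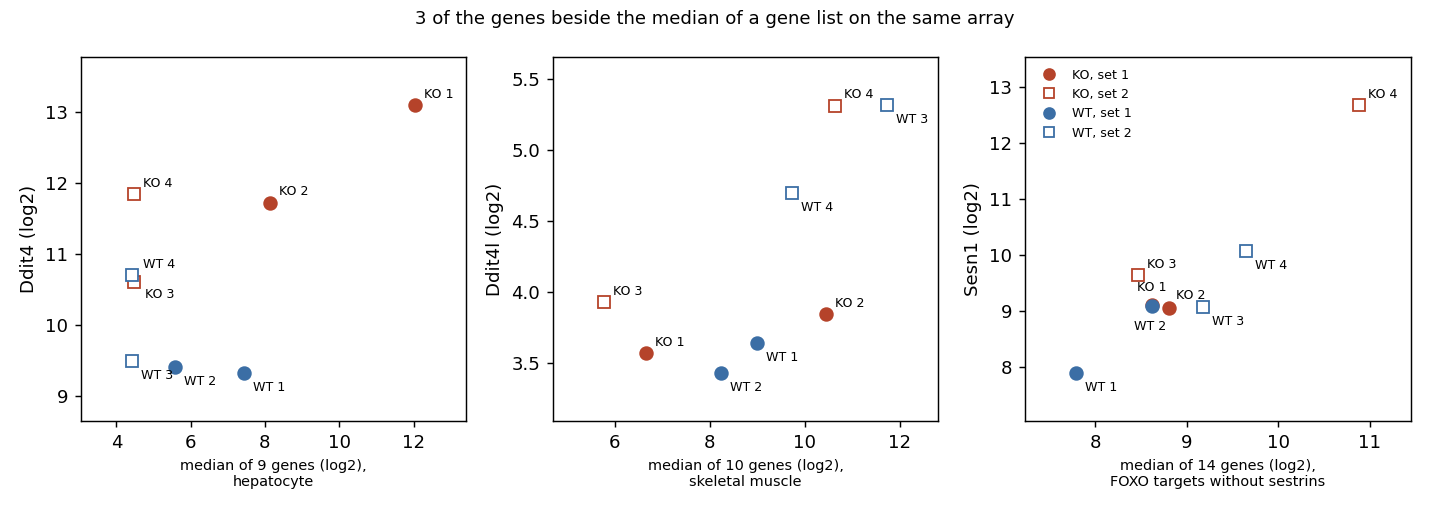
Level of Ddit4 (left), Ddit4l (middle) and Sesn1 (right) on the y axis beside the median of 9 hepatocyte markers, 10 skeletal muscle markers and 14 FOXO target genes on the x axis, all on the log2 scale; each point is an array, red for KO and blue for wild type (WT), filled for set 1 and open for set 2. Ddit4 was highest on the array with the highest hepatocyte median (KO replicate 1, 12.05), the set 2 arrays spread over Ddit4 at nearly equal hepatocyte medians, Ddit4l was low in KO replicate 3, where the muscle median was 5.77, and Sesn1 was highest in KO replicate 4.

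Of the sestrins, Sesn1, which p53 and FOXO factors are known to induce, varied most. It read 9.10 and 9.06 in KO against 7.88 and 9.08 in wild type arrays of set 1, and 9.65 and 12.68 in KO against 9.07 and 10.07 in wild type arrays of set 2. The groups overlapped in both sets, and KO replicate 4 stood 3.03 above KO replicate 3, a gap wider than that of 99.9% of genes in this pair. KO minus wild type was 0.60 (SE 0.93) in set 1 and 1.59 (SE 0.93) in set 2, and 1.09 (SE 0.65) over all arrays. Without KO replicate 4 it was 0.39, and without KO replicate 3 it was 1.60. The wild type pairs also lay apart, by 1.20 in set 1, so the difference of the genotypes was not wider than the spread between mice.

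Sesn2, the leucine-sensing sestrin and a target of ATF4 and NRF2, read 6.35 and 6.23 in KO against 7.06 and 6.19 in wild type arrays of set 1. In set 2 it read 8.03 and 7.38 in KO against 7.28 and 7.22 in wild type arrays. The groups overlapped in set 1, where wild type replicate 1 was high, and both KO values were above both wild type values in set 2. KO minus wild type was -0.33 (SE 0.31) in set 1 and 0.45 (SE 0.31) in set 2, and 0.06 (SE 0.25) over all arrays. It turned to -0.15 without KO replicate 3.

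Sesn3, a FOXO target that is known from liver and muscle to support AKT signalling, varied least. It read 6.66 and 6.39 in KO against 6.76 and 6.69 in wild type arrays of set 1, and 7.39 and 7.63 in KO against 7.42 and 7.17 in wild type arrays of set 2. In set 1 each KO value was lower than either wild type value, though KO replicate 1 was close to wild type replicate 2, and the groups overlapped in set 2. KO minus wild type was -0.20 (SE 0.15) in set 1, 0.22 (SE 0.15) in set 2 and 0.01 (SE 0.12) over all arrays. A second probe set of Sesn3 read 5.86 and 5.79 in KO against 5.77 and 5.90 in wild type arrays of set 1, and 7.03 and 7.18 in KO against 7.04 and 6.72 in wild type arrays of set 2. There the groups overlapped in both sets, so the separation in set 1 was not seen by both probe sets.

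Deptor, which binds and inhibits mTOR itself, moved in opposite directions in the 2 sets. In set 1 it read 11.69 and 11.54 in KO against 11.99 and 12.29 in wild type arrays, so that both KO values were the lower ones. In set 2 it read 12.99 and 13.94 in KO against 12.50 and 12.76 in wild type arrays, so that both KO values were the higher ones. KO minus wild type was -0.53 (SE 0.29) in set 1 and 0.83 (SE 0.29) in set 2, and the 2 cancelled to 0.15 (SE 0.32) over all arrays. The difference between the sets was 1.36 (SE 0.41). Without KO replicate 4 the value over all arrays was -0.17.

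Of the 6 genes 0 passed within set 1, where 0 of 30710 genes passed (0%; 2376 at an unadjusted p under 0.05) in limma, and 0 passed within set 2, where 1 gene passed (0.00326%). That gene, Dbp, a clock output factor, was named after its values were seen, and differed by -2.59 (SE 0.16, adjusted p = 0.026). With only the arrays of set 2 in the fit 0 genes passed. For the difference between the sets 152 of 30710 genes passed (0.495%), and 0 of the 6 did. Groups that did not overlap were seen in 3 of the 6 genes in set 1 (Ddit4, Sesn3 and Deptor), against 38.4% of all genes, and in 2 of the 6 in set 2 (Sesn2 and Deptor), against 43% of all genes. Separation in the same direction in both sets was seen in 0 of the 6, against 5.3% of all genes. Separation in opposite directions was seen in 1, Deptor, against 12.7% of all genes. The differences of KO minus wild type over all arrays reached 1 in size in 2 of the 6, Ddit4 and Sesn1, against 0.352% of all genes. As the members were chosen with this contrast known, nothing is read from these shares.

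**Figure D3:**
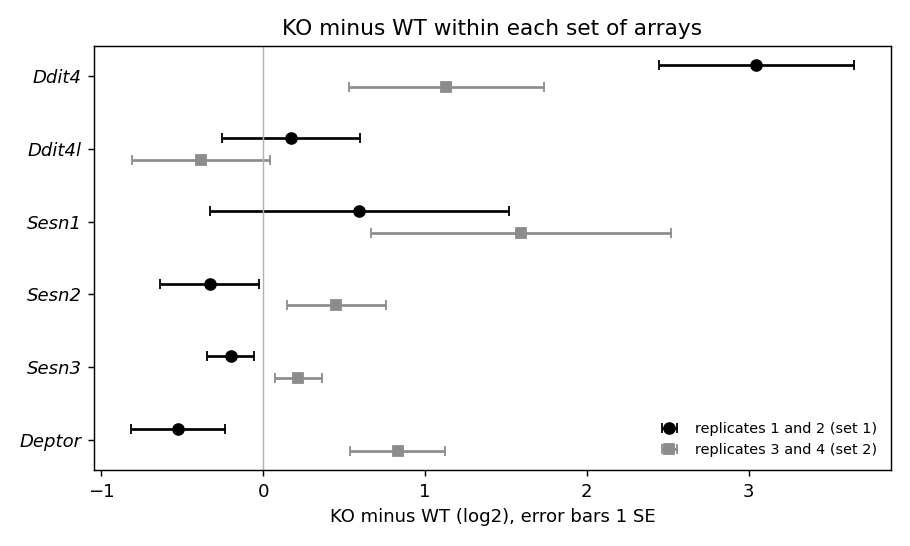
KO minus wild type on the log2 scale (x axis) for each of the 6 genes within set 1 (black circles) and within set 2 (grey squares), with bars of 1 SE from a fit with 1 spread per gene over all 8 arrays. Ddit4 (3.05 and 1.13) and Sesn1 (0.60 and 1.59) lie above 0 in both sets, while Ddit4l, Sesn2, Sesn3 and Deptor lie on opposite sides of 0 in the 2 sets.

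The genes whose set-centred values were most like those of Ddit4 over the 8 arrays were Elf1 (r = 0.967), Pkdcc (r = 0.965), Mir467f (r = 0.963), Plod2 (r = 0.961) and Ifi211 (r = 0.960). These r values are a description over 8 arrays and carry no p. The genes were picked as the highest of 11503 genes above the median level, of which 28 had r of at least 0.9, and the arrays share the genotype difference and the removal of the set means. Elf1, an ETS transcription factor, read 9.08, 8.77, 9.59 and 9.99 in KO replicates 1 to 4, against 8.24, 8.38, 9.18 and 9.64 in wild type replicates 1 to 4. Plod2, a collagen lysyl hydroxylase known to be induced by hypoxia, differed by only 0.12 between KO and wild type, so likeness of pattern was not likeness of size. Sesn1 was most like Gne, an enzyme of sialic acid synthesis (r = 0.975), and Fam107a (r = 0.975). Sesn2 was most like Efcab7 (r = 0.977) and Lmbrd1, a lysosomal protein of cobalamin export (r = 0.960). Sesn3 was most like Mir669a-2 (r = 0.988) and Mir467a-1 (r = 0.964), and Deptor was most like Lrrn4 and Dis3l (r = 0.994 for each). Among the 6 genes themselves, the highest r of set-centred values were 0.761 for Sesn1 with Deptor, 0.724 for Sesn3 with Deptor and 0.580 for Ddit4 with Sesn1, and the lowest was -0.520 for Ddit4l with Sesn2.

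No gene of the machinery on which these inhibitors act passed between KO and wild type over all arrays. Of 138 genes measured in 11 lists of the mTORC1 pathway and of known inducers, 0 passed between KO and wild type with the set as a block, as for all genes (0%). For the difference between the sets 4 of the 138 passed in limma, against 0.495% of all genes, and 0 of them with trend and robust priors. They were Prkag1, Sgk1, Slc3a2 and Tnfrsf10b, named after their values were seen and described with their lists. With a mean of at least 5 as filter the same difference also passed in Atf3, Irs2, Bcl6 (-2.99), Flcn (1.52) and Rptor. Rptor, Flcn and Bcl6 were likewise named after their values were seen. Rptor, of the mTOR complex subunits, differed by 0.34 in set 1 and -0.60 in set 2. With the filter the difference between the sets was -0.94 (adjusted p = 0.0395 in limma). After quantile normalization it passed too, at -1.07 (adjusted p = 0.0467 in limma). Over all genes the median of KO minus wild type was 0.0074, and 52.6% were above 0. Of 9 subunits of the mTOR complexes 7 were below 0, with a median of -0.10. Mtor, the kinase, differed by -0.22 (SE 0.10), Tti1, which helps to assemble it, by -0.22 (SE 0.14), and Mlst8, a subunit of both complexes, by -0.14 (SE 0.13). In the TSC complex with Rheb, through which REDD1 acts, 3 of 5 genes were below 0, with a median of -0.09. Tbc1d7, a subunit of the TSC complex, read 7.02 and 6.83 in KO against 7.10 and 7.36 in wild type arrays of set 1, and 8.87 and 8.33 in KO against 8.93 and 9.04 in wild type arrays of set 2. Tbc1d7 thus lay lower in KO without overlap in both sets, by 0.34 (SE 0.13), as did 2.46% of all genes. Tsc1 lay higher in KO in both, by 0.17 (SE 0.09), as did 2.85% of all genes. Its margin was narrow, with 5.90 in KO replicate 2 against 5.86 in wild type replicate 2, and 7.09 in KO replicate 3 against 7.07 in wild type replicate 4. Both genes were named for a small unadjusted p in the same contrast, so nothing is read from these shares. Over all arrays the adjusted p of each gene named from these lists was 0.984 or higher.

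Of 25 Rag, Ragulator, GATOR and amino acid sensing genes, the amino acid side on which sestrins act, 15 were below 0, with a median of -0.05 (-0.18 in set 1 and 0.12 in set 2). Lamtor1, Lamtor3 and Lamtor4, subunits of the Ragulator that anchors the Rag GTPases at the lysosome, differed by -0.29, 0.18 and -0.17. Of 14 genes of insulin, PI3K, AKT and AMPK input 12 were below 0, with a median of -0.12. Pik3cb, a catalytic subunit of PI3K, differed by -0.38 (SE 0.13), Akt1 by -0.18 (SE 0.07) and Prkaa1, a catalytic subunit of AMPK, by -0.23 (SE 0.11). Pik3cb and Akt1 were lower in KO without overlap in both sets, as were 2.46% of all genes. These 2 were named for a small unadjusted p in the same contrast, so nothing is read from that share. Within the sets, the widest differences of the list were those of the insulin receptor substrates, which were named after their values were seen. Irs2 read 9.70 and 9.19 in KO against 10.67 and 9.96 in wild type arrays of set 1, and 14.76 and 14.09 in KO against 9.04 and 11.02 in wild type arrays of set 2. Irs2 differed by 1.76 (SE 1.04; -0.87 in set 1 and 4.40 in set 2). Irs1 differed by -0.25 (SE 0.77; -1.88 in set 1 and 1.37 in set 2). Prkag1, a regulatory subunit of AMPK, differed by -0.80 in set 1 and 0.73 in set 2, and the difference between the sets was 1.53 (adjusted p = 0.0454 in limma). That difference did not pass after quantile normalization or median centring. In these 3 genes the sign of KO minus wild type turned between the sets.

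Of 13 mTORC1 substrates and effectors 8 were below 0, with a median of -0.02. Lpin1, a phosphatidate phosphatase that mTORC1 keeps out of the nucleus, differed by 0.81 (SE 0.31), Tfeb, the lysosomal transcription factor, by -0.20 (SE 0.09) and Maf1, a repressor of RNA polymerase III, by 0.23 (SE 0.11). Eif4ebp1, the translation repressor that mTORC1 inactivates, averaged 12.42 in KO arrays and 12.43 in those of wild type (difference -0.01, SE 0.09). Transcript levels do not show phosphorylation, so the activity of mTORC1 was not measured here.

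Among the known inducers of Ddit4 and the sestrins, the glucocorticoid-responsive list had the highest median. Of its 14 genes 11 were above 0 and the median difference was 0.38 (0.21 in set 1 and 0.39 in set 2), against 0.0074 for all genes. The median level of the list was 8.75 and 8.61 in KO against 8.06 and 8.10 in wild type arrays of set 1, and 10.53 and 10.39 in KO against 8.50 and 10.19 in wild type arrays of set 2. Both KO arrays thus lay above both wild type arrays in each set, though 0 of the 14 genes passed over all arrays. Such separation of a list median was not particular to this list, and nothing is read from it. The median of the TSC complex and Rheb list lay lower in KO without overlap in each set. Its values were 7.02 and 6.83 against 7.10 and 7.36 in set 1, and 8.87 and 8.33 against 8.93 and 9.04 in set 2. The median of the mTOR complex subunits was separated in opposite directions in the sets. Errfi1, a feedback inhibitor of the EGF receptor, differed by 1.05 (SE 0.26), with 0.62 in set 1 and 1.47 in set 2. It was the only one of the 14 that was separated in the same direction in both sets. Of all genes 2.85% were higher in KO in this way, and nothing is read from that share. Tsc22d3 (GILZ) differed by 0.74 (SE 0.30; 1.22 in set 1 and 0.25 in set 2) and Klf15 by 0.39 (SE 0.15; 0.67 in set 1 and 0.11 in set 2). In these 2 genes, as in Ddit4, the larger difference lay in set 1. In Errfi1 and in the median of the list it lay in set 2, and for most genes of the list KO minus wild type was higher in set 2. Sgk1, a kinase induced by glucocorticoids and named after its values were seen, read 7.28 and 7.39 in KO against 7.68 and 7.78 in wild type arrays of set 1, and 10.06 and 10.06 in KO against 8.04 and 8.55 in wild type arrays of set 2. It was lower in KO without overlap in set 1 and higher without overlap in set 2, and the difference between the sets, 2.16, passed (adjusted p = 0.0375 in limma). Within set 2 alone the difference of Sgk1, 1.77, was called with a mean of at least 5 as filter (adjusted p = 0.0411 in limma) and not without it. Zbtb16 (PLZF), a transcription factor also named after its values were seen, read 10.58 and 12.10 in KO against 7.70 and 9.26 in wild type arrays of set 1, and 11.56 and 12.75 in KO against 12.19 and 12.44 in wild type arrays of set 2. It differed by 1.35 (SE 0.71; 2.86 in set 1 and -0.16 in set 2). Without Pdk4 and Mt2, which lay within 0.1 of the highest value on 1 or more arrays, the median was 0.44 over 12 genes. Nr3c1, the glucocorticoid receptor, differed by -0.28 (SE 0.20).

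The list of FOXO targets had 9 of 14 genes above 0 and a median of 0.36 (0.14 in set 1 and 0.13 in set 2). Klf15 and Irs2, described above, belong to this list too. Igfbp1, an IGF-binding protein of liver, differed by 0.63 (SE 0.26; 1.13 in set 1 and 0.14 in set 2). Its highest value, 5.48, was on KO replicate 1, the array with the highest liver median. Bnip3, a mitophagy receptor, differed by 0.46 (SE 0.22; -0.02 in set 1 and 0.93 in set 2). The median level of the 14 genes was 8.62, 8.80, 8.47 and 10.89 in KO replicates 1 to 4, against 7.79, 8.62, 9.17 and 9.65 in wild type replicates 1 to 4, and KO replicate 4, the array with the highest Sesn1, was the highest. Without Igfbp1, G6pc, Pck1, Trim63 and Fbxo32, which liver or muscle express, the median level was 10.28 in KO replicate 4 and 10.28 in wild type replicate 4. In that reduced list KO replicate 4 no longer stood out. Without Pdk4, Txnip and Pck1 instead, which lay within 0.1 of the highest value on 1 or more arrays, KO replicate 4 was still the highest, at 8.83. The next were KO replicate 2 at 8.53 and wild type replicate 3 at 8.50, so the outcome depended on the genes removed. Foxo3 itself differed by 0.54 (SE 0.19).

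**Figure D4:**
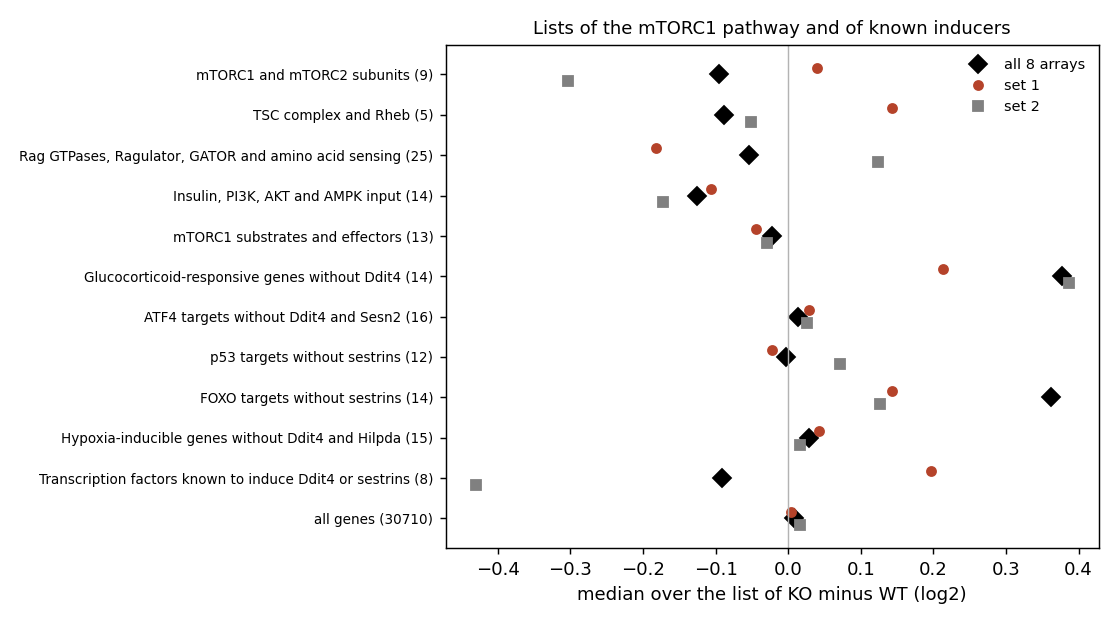
Median over each list of the KO minus wild type difference on the log2 scale (x axis), over all 8 arrays (black diamonds), within set 1 (red circles) and within set 2 (grey squares), with the number of measured genes in brackets. The glucocorticoid-responsive (0.38) and FOXO target (0.36) lists lie highest over all arrays, and the bottom row shows all 30710 genes (0.0074).

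The medians of the other inducer lists lay near that of all genes. ATF4 targets had 9 of 16 genes above 0 and a median of 0.01. Asns, asparagine synthetase, differed by -0.27 (SE 0.14), Trib3, a pseudokinase, by 0.20 (SE 0.12) and Atf3 by 0.93 (SE 0.49; -0.28 in set 1 and 2.14 in set 2). Slc3a2, the heavy chain of amino acid transporters, read 10.81 and 11.78 in KO against 13.73 and 14.13 in wild type arrays of set 1, and 14.80 and 14.27 in KO against 12.92 and 13.17 in wild type arrays of set 2. It was lower in KO in set 1 and higher in set 2, by -2.64 and 1.49, a difference between the sets of 4.13 (adjusted p = 0.0407 in limma). Of 12 p53 targets 6 were above 0, with a median of -0.0033. Trp53inp1, a stress protein of autophagy, read 15.50 and 15.19 in KO against 14.07 and 15.13 in wild type arrays of set 1, and 13.95 and 14.86 in KO against 11.79 and 13.16 in wild type arrays of set 2. It differed by 1.34 (SE 0.42) and Plk2, a stress-induced kinase, by -0.34 (SE 0.10), both without overlap in either set. Of all genes 2.85% were higher and 2.46% lower in KO in this way. Trp53inp1 and Plk2 were named for a small unadjusted p in the same contrast, so nothing is read from these shares. Phlda3, a p53-induced inhibitor of AKT, differed by -0.57 (SE 0.25). Tnfrsf10b, a death receptor, differed by -0.88 in set 1 and 0.95 in set 2, a difference between the sets of 1.83 (adjusted p = 0.0493 in limma). That difference did not pass after quantile normalization or median centring.

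Of 15 hypoxia-inducible genes, a list from which Ddit4 and Hilpda were left out, 8 were above 0, with a median of 0.03 (0.04 in set 1 and 0.02 in set 2). The part of hypoxia in the difference of Ddit4 was not tested. Kdm3a, a histone demethylase, differed by 0.26 (SE 0.08) and was higher in KO without overlap in both sets, as were 2.85% of all genes. It was named for a small unadjusted p in the same contrast, so nothing is read from that share. Ero1a, an oxidase of the endoplasmic reticulum, differed by -0.30 (SE 0.11). Of 8 transcription factors known to induce Ddit4 or the sestrins 6 were below 0, with a median of -0.09 (0.20 in set 1 and -0.43 in set 2). Ddit3 (CHOP), one of them, differed by -0.22 (SE 0.26).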

How the data were processed

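Per the labels, biotinylated RNA was hybridized to Affymetrix arrays, and the authors derived the deposited log2 values with RMA (Affymetrix Expression Console, core-exon setting). Software versions and the genome build are not stated there. The log base follows from the highest value, 19.93 on 4 arrays, which is log2 of 999952, and scanner files were not used. Of 65956 probe sets that are not controls, 31266 named 1 gene, 1484 several and 33206 none. Symbols were updated through a RefSeq table (GRCm38.p6), which holds 31264 of the 31266, and used for names only. Olfactory receptor genes served as a measure of background signal.

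The members and lists were chosen with earlier results of these data known. Differences and SEs came from limma 3.58.1 in R 4.3.3 (lmFit, eBayes, no filter), with the set as a block, or with 1 mean per group and set for values within a set. The script was tested on simulated data. The named genes are the members, up to 3 of each list with the smallest unadjusted p, 5 genes most like Ddit4 and 2 most like each other member (predicted genes left out), and 4 reference genes. Eif4ebp1 and genes named as such were added after their values were seen. List genes without a probe set of their own are not analysed here.

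Replicate numbers are shared by the groups. Same-numbered arrays deviated together from the group means (correlations 0.701, 0.473, 0.479 and 0.610 for replicates 1 to 4). The highest correlation with an array of another number was 0.517, 0.616, 0.628 and 0.531 in the same order. For replicates 2 and 3 it was thus higher than that of the same number. With the sets removed, the 2 arrays of a group and set mirror each other, which leaves 1 correlation per set. It was 0.107 in set 1 and -0.0888 in set 2, so little of the pairing was left within the sets. Alternatives were no block, the replicate block, a filter, 2 other scalings, another prior, the mean of probe sets and each array left out.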

Additional observations from a re-analysis of the deposited data

Results flagged for a closer look

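In 7 of the 128 groups of 4 arrays checked (64 named genes in KO and in wild type), 1 array lay far from the other 3 by Dixon's criterion, which chance alone meets in about 1 of 20 groups, and the groups span both sets. Sesn1 read 12.68 in KO replicate 4, against 9.06 to 9.65 in the other KO arrays. Ddit4 read 10.71 in wild type replicate 4, against 9.32 to 9.49 in the others. Errfi1, of the glucocorticoid-responsive list, was also high in wild type replicate 4, at 9.15 against 8.42 to 8.49. Lpin1 read 16.91 in KO replicate 4, against 15.35 to 15.56. Phlda3 read 7.54 in KO replicate 3, against 6.84 to 6.95. The liver enzyme Hpd read 9.80 in KO replicate 1, against 6.49 to 6.99, and Mir669a-2, the gene most like Sesn3, read 5.59 in wild type replicate 3, against 4.86 to 4.96.

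In 10 named genes every KO array lay on one side of wild type in set 1 and on the other side in set 2. Rptor, Flcn and Bcl6 did so too and are not part of this count. Deptor differed by 0.83 in set 2 and by -0.53 in set 1. Lrrn4 and Dis3l, named because they were most like Deptor, differed by 0.60 and 0.0788 in set 2 and by -0.36 and -0.05 in set 1. Rheb, the GTPase that activates mTORC1, differed by 0.35 in set 2 and by -0.57 in set 1. Atf3, a stress-induced transcription factor, differed by 2.14 in set 2 and by -0.28 in set 1. The other 5 were named after their values were seen. Irs2 differed by 4.40 in set 2 and by -0.87 in set 1, and Prkag1 by 0.73 and -0.80 in the same order. Sgk1 differed by 1.77 in set 2 and by -0.40 in set 1, Slc3a2 by 1.49 and -2.64, and Tnfrsf10b by 0.95 and -0.88. In limma, without a filter, the difference between the sets passed in 4 of the 10 genes. It was 1.53 in Prkag1, 2.16 in Sgk1, 4.13 in Slc3a2 and 1.83 in Tnfrsf10b, and with a mean of at least 5 as filter it also passed in Irs2 (5.27) and Atf3 (2.42). Of the 4, Sgk1 and Slc3a2 passed after quantile normalization and after median centring as well, and Prkag1 and Tnfrsf10b under neither. With trend and robust priors it passed in none of the genes of the mTORC1 pathway and inducer lists. Of all genes 12.7% were separated in opposite directions in this way.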

How the results depend on the processing

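The count of genes called between KO and wild type was 0 under each alternative over all arrays, the replicate block included (0 genes, lowest adjusted p = 0.0738 in limma), and 0 to 1 with 1 array left out. The 1 gene, without KO replicate 3, was Cebpa. Within set 2 the count was 1, and 0 with only the arrays of the set, 37 with a mean of at least 5, and 0 after quantile normalization. For the difference between the sets it was 152, and 445 with a mean of at least 5, 82 after median centring and 6 with trend and robust priors. Fewer genes were tested with the filter, and for the rest the cause was not tested. In none of these was a member called, and Sgk1 was among the 37. The sign of KO minus wild type held for Ddit4 and Sesn1 in 11 of 11 alternatives each. It held in 9 of 11 for Ddit4l and Deptor and in 7 of 11 for Sesn2 and Sesn3. Signal limits Ddit4l, which was near the level of olfactory receptor genes, and 2 arrays per group and set limit every value within a set.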
